A study of Mus musculus with 4 samples.

Results

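The genes described here are 42 genes of transforming growth factor beta (TGF-beta) and bone morphogenetic protein (BMP) signalling, chosen by name: ligands, receptors, Smad proteins, inhibitors and binding proteins, and the Id genes. Of these, 37 reached a level of 1 FPKM in at least 1 of the 4 libraries and were compared, out of 13458 genes that did so in the whole data set. FPKM, a count of sequenced fragments scaled by transcript length and library size, lets levels be set side by side between genes. The cultures were dissociated hippocampal neurons of newborn (P0) CD1 mice, an outbred strain, kept for 11 days in vitro. On day 4 they received a lentivirus, either the pLKO.1 vector or a vector with a hairpin RNA (shRNA) against Kdm6b, which encodes a demethylase of histone H3 lysine 27. On day 11 each kind of culture was left untreated or given 50 µm bicuculline (the unit as the labels write it) with 2.5 mM 4-aminopyridine for 3 h, here called Bic/4AP. The former is an antagonist of GABA-A receptors and the latter an inhibitor of potassium channels, a pair used to drive synaptic activity. The 4 groups were thus vector untreated, vector with Bic/4AP, hairpin untreated and hairpin with Bic/4AP, with 1 library each. All 4 had been infected, and the hairpin was a single sequence against 1 target.

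TGF-beta family ligands bind pairs of type I and type II serine/threonine kinase receptors, which phosphorylate Smad proteins. TGF-beta receptors act mainly through Smad2 and Smad3, BMP receptors through Smad1, Smad5 and Smad9, and both kinds of Smad enter the nucleus with Smad4. Secreted antagonists such as noggin and chordin hold BMP ligands away from their receptors, Smad6 and Smad7 switch the receptors off, and the Id genes are classic BMP targets. In the hippocampus the pathway is known for its part in the fate of neural stem cells and in the formation of astrocytes.

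With 1 library per group no difference was tested. The error given is the lower and upper bound that the authors' software set on each FPKM, which covers counting and the assignment of reads within a library and not the variation between cultures. Differences are given on the log2(FPKM + 1) scale, with a pseudocount of 1 FPKM, which understates differences of weakly expressed genes. A gene was called by 2 rules of size, at least 2-fold (a difference of 1 or more), or at least 1.5-fold (0.585 or more) with bounds that did not overlap. Both rules are read on this scale, so a gene 2-fold apart in plain FPKM may not pass the 2-fold rule. The libraries had 12976 to 13141 genes at 1 FPKM or above, and the bounds of genes at 5 FPKM or above lay a median of 4.18% to 4.44% from the value. Read totals were not used here. Cell type markers showed a mixed culture. All 13 neuron markers stood at 1 FPKM or above in each library, with sums of 2253 (vector untreated), 2135 (vector with Bic/4AP), 1833 (hairpin untreated) and 2020 FPKM (hairpin with Bic/4AP). Astrocyte markers were also abundant, with 8 or 9 of 9 at 1 FPKM or above and sums of 2787, 3003, 2677 and 3049 FPKM in the same order. Of the endothelial markers 1 of 8, Kdr, stood at 1 FPKM or above, the sums were 4.33 to 6.54 FPKM and Cldn5 was listed at 0 in the vector culture with Bic/4AP. In such bulk RNA, fewer cells of a type and less RNA per cell cannot be told apart.

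The hairpin's target and the stimulus were checked first. The hairpin has the sequence below, shown because every comparison of hairpin with vector rests on it. Its first 18 bases, in capitals, matched the coding sequence of the Kdm6b transcript Kdm6b-201 in exon 11 (GRCm38, chr11:69404991-69405008), and its last 3 bases did not match there.
Kdm6b hairpin: CTGTTCTTGAGGGACAAActc
Kdm6b stood at 6.74 FPKM (authors' bounds 6.44 to 7.04) in the untreated vector culture and 2.73 FPKM (2.55 to 2.92) in the untreated hairpin culture. With Bic/4AP it stood at 13.15 FPKM (12.7 to 13.6) with the vector and 4.83 FPKM (4.58 to 5.08) with the hairpin. Fos, an immediate-early gene of neuronal activity, stood at 771 and 765 FPKM with Bic/4AP, against 12.55 and 15.3 FPKM untreated. Both values went the way of the labels.

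**Figure D1:**
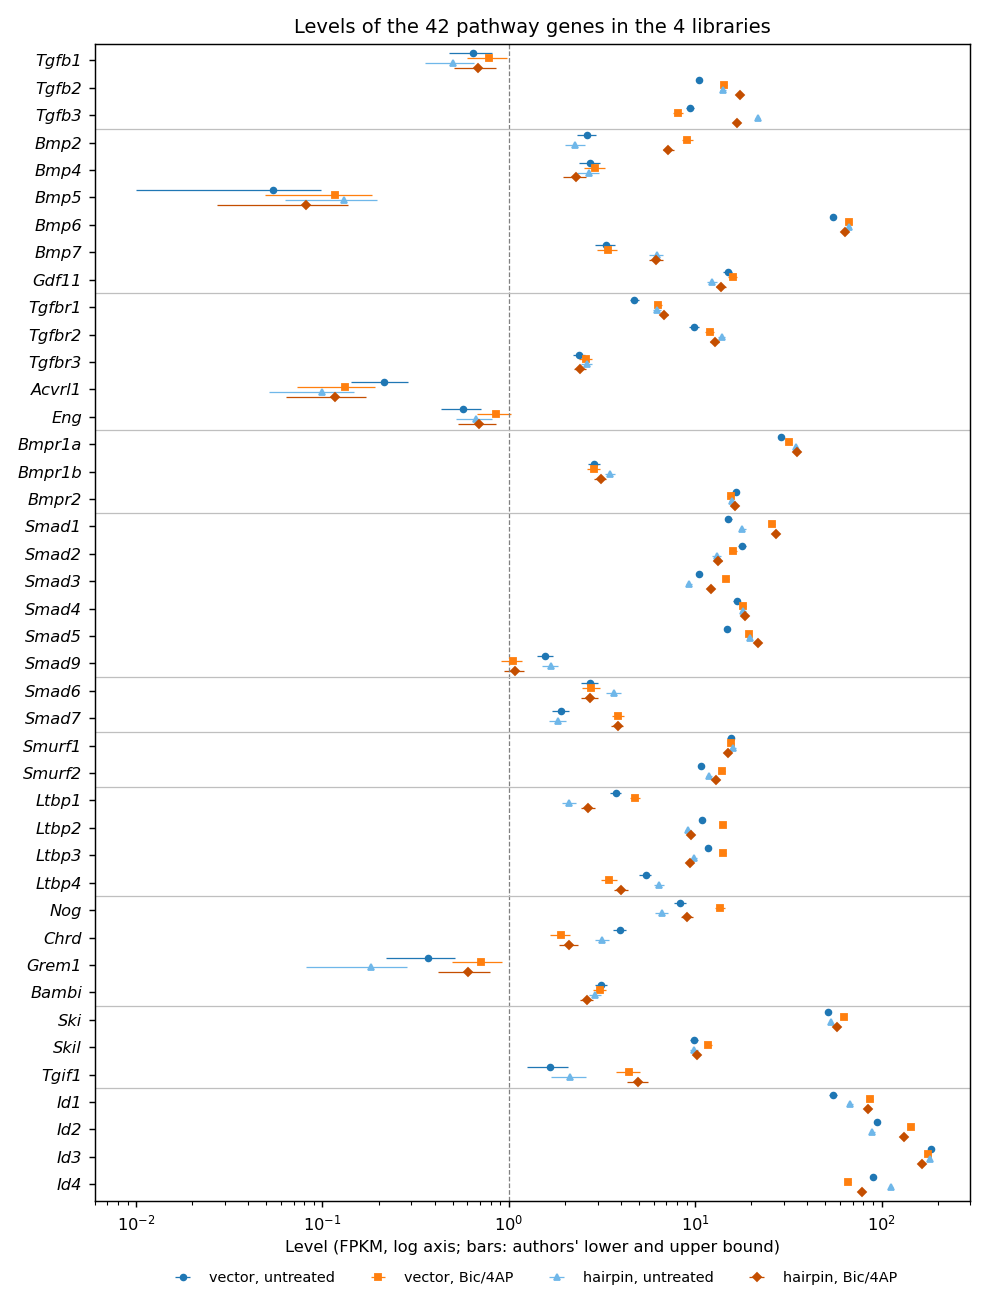
Level of each of the 42 pathway genes (rows, grouped by role) in the 4 libraries, in FPKM on a log axis; points are the values, bars the authors' lower and upper bounds, and the dashed line the filter of 1 FPKM. Levels run from 0.0543 FPKM (Bmp5) to 185 FPKM (Id3), and 5 genes stay below the line in every library.

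Bic/4AP went with higher levels of a few pathway genes in both kinds of culture, led by the BMP ligand Bmp2, the nuclear corepressor Tgif1 and the inhibitory Smad gene Smad7. In vector cultures Smad1, the BMP antagonist gene Nog and the targets Id1 and Id2 were also at least 1.5-fold higher, and the antagonist gene Chrd was lower. The median difference of the 37 genes was 0.24 in vector cultures, beside -0.07 for all genes compared, and 27 lay above 0 and 10 below. In hairpin cultures the median was 0.03, beside -0.08 for all genes, with 21 above 0 and 16 below. By the 2-fold rule, 2 of the 37 genes, Bmp2 and Tgif1, were higher in vector cultures (beside 2.18% of all genes) and none lower (beside 0.267% of all genes). By the 1.5-fold rule 7 of the 37 were higher (beside 4.91% of all genes) and 1 lower (beside 3.54% of all genes). In hairpin cultures 1 gene, Bmp2, passed the 2-fold rule on the higher side (2.06% of all genes) and none on the lower (0.156% of all genes). By the 1.5-fold rule Bmp2, Tgif1 and Smad7 were higher there (4.12% of all genes) and none lower (2.45% of all genes). Each count is out of 37 genes, and each percentage, here and below, is the share of all genes compared that passed the same rule.

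The vector response and the hairpin response share no library. Their correlation across the 37 genes was 0.935 (Pearson) and 0.897 (Spearman), against 0.862 and 0.800 over all 13458 compared, and 27 of 37 genes (73.0%) had the same sign in both, against 81.3% of all genes. Genes are not independent replicates, and these values describe 4 libraries.

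**Figure D2:**
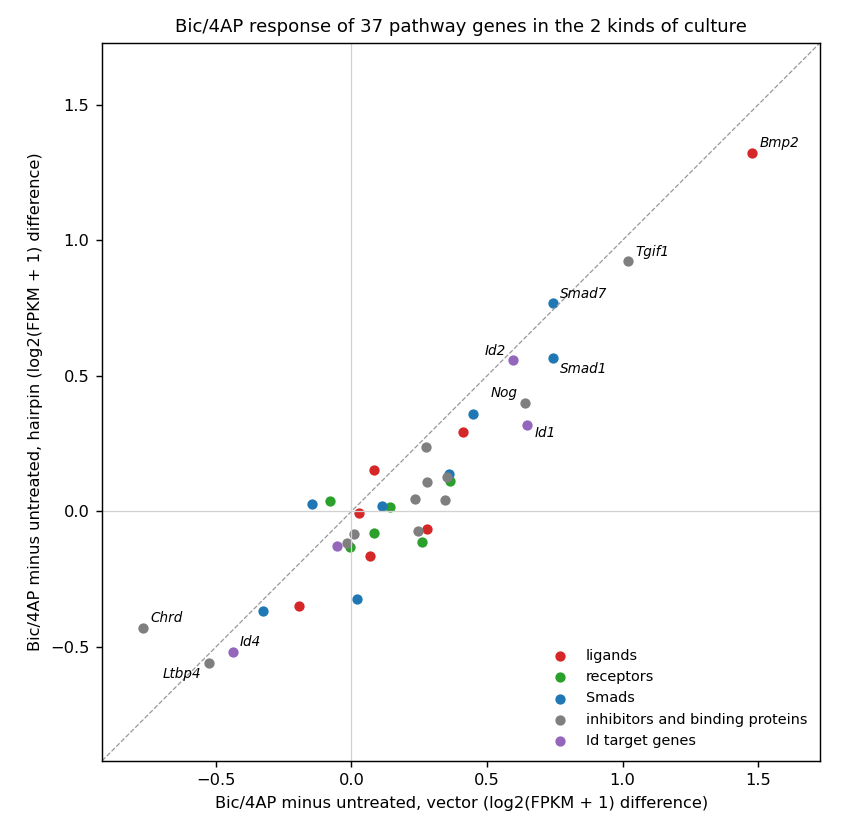
Bic/4AP minus untreated in vector cultures (x axis) and hairpin cultures (y axis), both in log2(FPKM + 1), for the 37 pathway genes, 1 point per gene, colored by role; the dashed line marks equal values. Bmp2 stands alone at the upper right (1.48 and 1.32), Chrd, Id4 and Ltbp4 sit at the lower left, and most other points lie below the dashed line.

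The hairpin went with higher levels of the ligand genes Tgfb3 and Bmp7 and a lower level of Ltbp1, which encodes a protein that stores latent TGF-beta in the extracellular matrix, and did so both untreated and with Bic/4AP. Untreated, 1 gene, Tgfb3, was at least 2-fold higher (0.409% of all genes) and none lower (0.661% of all genes). By the 1.5-fold rule Tgfb3 and Bmp7 were higher (2.63% of all genes) and Ltbp1 was lower (2.87% of all genes). With Bic/4AP none passed the 2-fold rule on the higher side (0.186% of all genes) or the lower (0.528% of all genes). Tgfb3 was 2.07-fold higher in plain FPKM, but its difference was 0.96 on the log2(FPKM + 1) scale. The same Tgfb3 and Bmp7 were higher by the 1.5-fold rule (1.63% of all genes) and Ltbp1 lower (2.07% of all genes). The median hairpin difference of the 37 genes was 0.06 untreated and -0.03 with Bic/4AP, beside 0.05 and 0.03 for all genes. The untreated pair and the Bic/4AP pair share no library, and their hairpin differences correlated at 0.887 (Pearson) and 0.792 (Spearman) across the 37 genes, against 0.723 and 0.747 across all genes. The sign was the same in both for 27 of 37 genes (73.0%), against 78.7% of all genes.

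**Figure D3:**
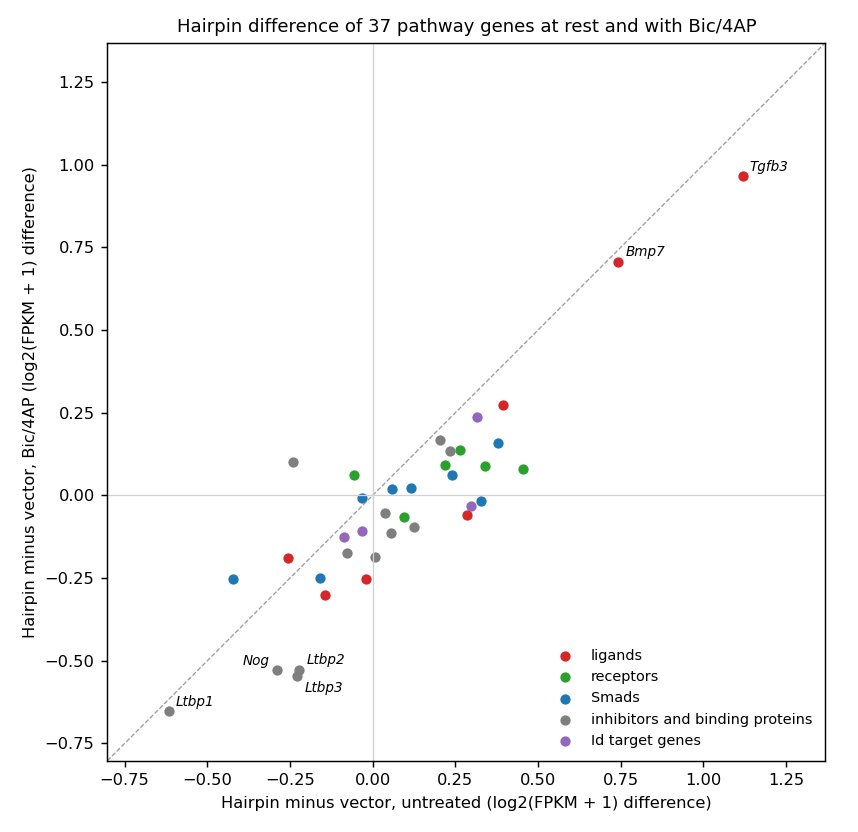
Hairpin minus vector in untreated cultures (x axis) and with Bic/4AP (y axis), both in log2(FPKM + 1), for the 37 pathway genes, colored by role; the dashed line marks equal values. Tgfb3 (1.12 and 0.96) and Bmp7 (0.74 and 0.71) lie apart at the upper right, Ltbp1 at the lower left, and Nog, Ltbp2 and Ltbp3 lie further from 0 on the y axis than on the x axis.

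Among the ligands, Bmp6 was the most abundant gene, with 68.0% to 73.9% of the summed FPKM of the 6 BMP and GDF ligand genes in each library. It stood at 54.9 FPKM in the untreated vector culture, 66.7 with Bic/4AP, 67.1 in the untreated hairpin culture and 64.0 with the hairpin and Bic/4AP. The untreated vector culture thus stood apart from the others, with bounds (53.5 to 56.4) that met none of theirs. Bmp2, a BMP ligand that acts in bone formation and in neural patterning, lies on chr2:133378935-133388621 (mm9). Its level was 2.62 FPKM (2.31 to 2.93) in the untreated vector culture and 9.09 FPKM (8.49 to 9.69) with Bic/4AP. Under the hairpin its level was 2.27 FPKM (1.99 to 2.56) untreated and 7.19 FPKM (6.68 to 7.71) with Bic/4AP. Both stimulated cultures were above both untreated ones, 3.47-fold in vector and 3.16-fold in hairpin cultures, and the stimulated hairpin culture was below the stimulated vector culture (a difference of -0.30). The share of Bmp2 in the BMP and GDF sum went from 3.34% to 9.26% with the vector and from 2.51% to 7.69% with the hairpin.

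Bmp7, a BMP ligand with roles in kidney and eye development, lies on chr2:172695189-172765794 (mm9). It stood at 3.31 FPKM (2.91 to 3.70) and 3.39 FPKM (2.98 to 3.81) in the vector cultures, untreated and with Bic/4AP, and at 6.21 FPKM (5.67 to 6.74) and 6.17 FPKM (5.63 to 6.71) in the hairpin cultures. Both hairpin cultures were above both vector cultures, 1.88-fold untreated and 1.82-fold with Bic/4AP, and the Bic/4AP differences were 0.03 and -0.01. Gdf11, a TGF-beta family ligand that acts on axial patterning, was lower with the hairpin, at 15.0 and 15.9 FPKM with the vector and 12.4 and 13.8 FPKM with the hairpin (differences of -0.26 and -0.19). Bmp4 stood between 2.28 and 2.91 FPKM, and its bounds overlapped in all 4 comparisons. Bmp5, a close relative of Bmp6 and Bmp7, stayed below the filter, at 0.0543 to 0.130 FPKM.

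The 3 TGF-beta isoform genes differed in level and in pattern. Tgfb1 stayed below the filter, at 0.501 to 0.788 FPKM, so that Tgfb2 and Tgfb3 made up nearly the whole sum. Tgfb3 lies on chr12:87397693-87419991 (mm9) and stood at 9.41 FPKM (8.92 to 9.91) in the untreated vector culture and 21.6 FPKM (20.9 to 22.4) in the untreated hairpin culture. With Bic/4AP it stood at 8.11 FPKM (7.63 to 8.59) with the vector and 16.8 FPKM (16.1 to 17.4) with the hairpin. It was 2.30-fold and 2.07-fold higher with the hairpin, and lower with Bic/4AP in both kinds of culture (differences of -0.19 and -0.35). Tgfb2, on chr1:188447065-188529871 (mm9), stood at 10.5 and 14.3 FPKM with the vector, untreated and with Bic/4AP, and at 14.1 and 17.5 FPKM with the hairpin. It was higher with Bic/4AP (0.41 and 0.29) and with the hairpin (0.39 and 0.27), with bounds apart in all 4 comparisons. The sum of the 3 genes was 20.6 and 23.2 FPKM in vector cultures and 36.2 and 34.9 FPKM in hairpin cultures, and the share of Tgfb3 in it was 45.8% and 35.0% with the vector and 59.7% and 48.0% with the hairpin. Beside these hairpin differences, the neuron marker sum was lower in the untreated hairpin culture and the microglia marker sum was 25.9 and 30.4 FPKM with the hairpin against 56.2 and 56.6 FPKM with the vector. Of the other markers, Kdr moved the same way as the ligand genes, and the astrocyte list and the ependymal and choroid plexus list were mixed. Of the 9 astrocyte markers 5 were above 0 with the hairpin untreated and 6 with Bic/4AP (medians of 0.02 and 0.07). Aqp4 (0.19 and 0.10), Aldh1l1 (0.18 and 0.28) and S100b (0.17 and 0.42) were among those higher in both states. Slc1a2 (-0.72 and -0.47), Gjb6 (-0.64 and -0.52) and Aldoc (-0.37 and -0.17) were lower in both. The endothelial marker Kdr stood at 3.41 and 3.53 FPKM with the vector and 5.46 and 4.79 FPKM with the hairpin (differences of 0.55 and 0.36, bounds apart). The sum of the endothelial list was 4.33, 4.41, 6.54 and 5.99 FPKM in the order vector untreated, vector with Bic/4AP, hairpin untreated and hairpin with Bic/4AP. Most of that sum was Kdr itself, and the other markers of the list stayed below 1 FPKM in each library and were not compared. Of 7 ependymal and choroid plexus markers 5 were compared, with a median hairpin difference of 0.29 untreated (4 of 5 above 0) and 0.10 with Bic/4AP (3 of 5), and sums of 404, 454, 406 and 415 FPKM. Within this list Ttr was lower with the hairpin in both states (-0.36 and -0.48). With Bic/4AP the list's sum was also lower with the hairpin than with the vector. The part of any of these lists in the Tgfb3 and Bmp7 values was not tested.

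None of the 6 receptor and co-receptor genes compared in this set passed either rule in any comparison. The TGF-beta type I and type II receptor genes shared a pattern with Bmp6, a low value in the untreated vector culture. Tgfbr1 stood at 4.72 FPKM (4.45 to 4.99) there, and at 6.35 with Bic/4AP, 6.24 with the hairpin and 6.82 with both. Tgfbr2 stood at 9.86 FPKM (9.27 to 10.45) there, and at 12.01, 13.9 and 12.7 FPKM in the same order. The bounds of the untreated vector culture met none of the others for either gene, whereas the Bic/4AP differences with the hairpin were 0.11 for Tgfbr1 and -0.11 for Tgfbr2 with overlapping bounds. Bmpr1a, a type I BMP receptor, was the most abundant of the receptor genes in this set. It stood at 28.8, 31.9, 34.8 and 35.2 FPKM (vector untreated, vector with Bic/4AP, hairpin untreated, hairpin with Bic/4AP). Bmpr2, the type II BMP receptor, held between 15.5 and 16.5 FPKM with overlapping bounds in every comparison. The co-receptor gene Tgfbr3 (2.38 to 2.62 FPKM) also had overlapping bounds throughout. Bmpr1b, the other type I BMP receptor, stood at 2.86, 2.85, 3.50 and 3.11 FPKM. The type I receptor Acvrl1 (at most 0.215 FPKM) and the co-receptor Eng (0.570 to 0.851 FPKM), both known from blood vessels, stayed below the filter, and Eng was the excluded gene nearest to it.

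Smad genes of the same branch differed in direction. Smad1, a BMP Smad, lies on chr8:81862298-81923367 (mm9) and stood at 15.05 FPKM (14.4 to 15.7) in the untreated vector culture and 25.9 FPKM (24.9 to 26.8) with Bic/4AP. In hairpin cultures it stood at 17.9 FPKM (17.2 to 18.7) and 27.0 FPKM (26.1 to 27.9). Both stimulated cultures were above both untreated ones, by 0.74 with the vector and 0.56 with the hairpin, the latter just under the 1.5-fold rule. Smad5, its close relative, stood at 14.9, 19.3, 19.6 and 21.7 FPKM in the order vector untreated, vector with Bic/4AP, hairpin untreated and hairpin with Bic/4AP. It was lowest in the untreated vector culture, and its bounds were apart in all 4 comparisons. Smad9, the remaining BMP Smad gene, was the least abundant of the 37 in each library and the compared gene nearest to the filter. It stood at 1.57 and 1.68 FPKM in the untreated vector and hairpin cultures and 1.05 and 1.08 FPKM in the stimulated ones, lower with Bic/4AP by -0.33 and -0.37, with bounds apart both times.

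Of the TGF-beta Smads, Smad3 was higher with Bic/4AP, at 10.5 and 14.7 FPKM in vector cultures and 9.27 and 12.2 FPKM in hairpin cultures (differences of 0.45 and 0.36). Smad2 stood at 17.8 and 16.0 FPKM with the vector and at 13.0 and 13.3 FPKM with the hairpin, so that both hairpin cultures were below both vector cultures (-0.42 untreated and -0.25 with Bic/4AP). Smad4, the partner of all of these, kept within 16.7 and 18.4 FPKM. Smad7, which recruits ubiquitin ligases to the receptors, stood at 1.91 FPKM (1.71 to 2.10) and 3.86 FPKM (3.57 to 4.15) in vector cultures and at 1.84 FPKM (1.65 to 2.03) and 3.83 FPKM (3.56 to 4.11) in hairpin cultures. The stimulated cultures were 2.03-fold and 2.08-fold above the untreated ones, which on the log2(FPKM + 1) scale is 0.74 and 0.77, and the hairpin differences were -0.03 and -0.01. Smad6, the inhibitor of the BMP branch, stood at 2.72, 2.77, 3.67 and 2.73 FPKM in the same order as above, higher in the untreated hairpin culture than in the other libraries. The Smurf genes encode ubiquitin ligases that act with the inhibitory Smads. Smurf1 kept within 15.0 and 16.0 FPKM, and Smurf2 stood at 10.75, 14.0, 11.8 and 13.0 FPKM, higher in both stimulated cultures.

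**Figure D4:**
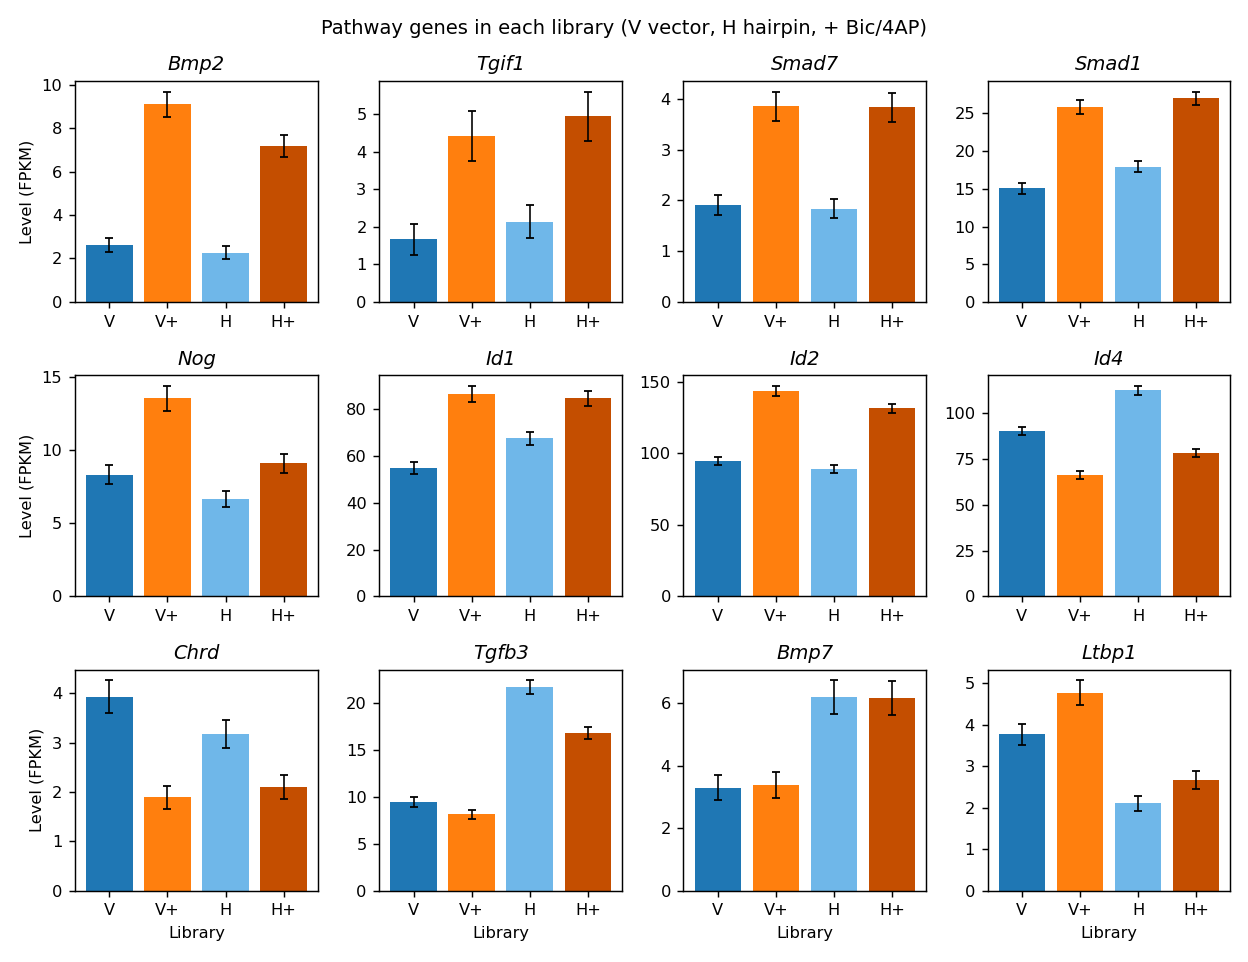
FPKM of 12 pathway genes in the 4 libraries (V vector, V+ vector with Bic/4AP, H hairpin, H+ hairpin with Bic/4AP), 1 bar per library, each axis starting at 0; error bars are the authors' lower and upper bounds, not replicate error. Bmp2, Tgif1, Smad7 and Smad1 have both Bic/4AP bars above both untreated bars, and Tgfb3 and Bmp7 have both hairpin bars above both vector bars.

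Among the secreted antagonists, Nog, which encodes noggin, lies on chr11:89161952-89163873 (mm9). It stood at 8.32 FPKM (7.69 to 8.96) and 13.5 FPKM (12.7 to 14.4) in vector cultures, untreated and with Bic/4AP, and at 6.63 FPKM (6.08 to 7.19) and 9.09 FPKM (8.42 to 9.75) in hairpin cultures. It was higher with Bic/4AP in both (0.64 and 0.40) and lower with the hairpin in both states (-0.29 and -0.53). Chrd, which encodes chordin, lies on chr16:20733200-20742457 (mm9) and ran the other way with the stimulus. It stood at 3.94 FPKM (3.61 to 4.26) and 1.90 FPKM (1.66 to 2.13) in vector cultures and at 3.18 FPKM (2.89 to 3.47) and 2.11 FPKM (1.87 to 2.35) in hairpin cultures. Both stimulated values were below both untreated values, at 0.482 and 0.663 times their level. Bambi, a pseudoreceptor without a kinase, stood between 2.62 and 3.13 FPKM. Grem1, another BMP antagonist, stayed below the filter at 0.182 to 0.708 FPKM.

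The Ltbp genes encode matrix proteins named for latent TGF-beta binding, a role that Ltbp2, unlike its relatives, is not known to share. With the hairpin 1 of the 4, Ltbp1, passed the 1.5-fold rule, in both states. Ltbp1, on chr17:75404869-75791109 (mm9), stood at 3.76 FPKM (3.50 to 4.02) and 4.77 FPKM (4.47 to 5.06) in vector cultures and at 2.11 FPKM (1.92 to 2.29) and 2.67 FPKM (2.44 to 2.90) in hairpin cultures. The hairpin level was 56.0% of the vector level in both states, and Bic/4AP went with a value 1.27-fold as high in both kinds of culture. Ltbp2 stood at 10.85, 14.1, 9.16 and 9.45 FPKM (vector untreated, vector with Bic/4AP, hairpin untreated, hairpin with Bic/4AP), and Ltbp3 at 11.7, 14.1, 9.86 and 9.34 FPKM. For both, the vector culture with Bic/4AP was highest and both hairpin cultures were below both vector cultures, by -0.22 and -0.23 untreated and by -0.53 and -0.55 with Bic/4AP. Ltbp4 went the other way, at 5.42, 3.46, 6.39 and 4.01 FPKM, lower with Bic/4AP (-0.53 and -0.56, 0.638 and 0.628 times its untreated level) and slightly higher with the hairpin (0.20 and 0.17). Beside these values, the sum of 7 mural cell markers was 206, 226, 186 and 169 FPKM in the same order, and the 3 of them at 1 FPKM or above had a median hairpin difference of -0.19 untreated and -0.52 with Bic/4AP. Nearly all of that sum came from Acta2 and Tagln, at 63.6 and 139.7 FPKM in the untreated vector culture. The summed FPKM of the 4 Ltbp genes was 31.7, 36.4, 27.5 and 25.5. Fibroblast and meningeal markers summed to 24.2, 25.7, 18.4 and 22.9 FPKM. The part of either marker list in the Ltbp values was not tested.

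The nuclear corepressors Ski, Skil and Tgif1 bind Smads and hold target genes down. Tgif1, on chr17:71193545-71202872 (mm9), stood at 1.67 FPKM (1.26 to 2.08) and 4.41 FPKM (3.75 to 5.07) in vector cultures and at 2.14 FPKM (1.69 to 2.58) and 4.94 FPKM (4.28 to 5.60) in hairpin cultures. Both stimulated cultures were above both untreated ones, 2.65-fold and 2.31-fold, and the hairpin differences had overlapping bounds. Ski was abundant, at 51.5, 62.6, 53.5 and 57.9 FPKM in the order used above, and Skil stood at 9.85, 11.8, 9.89 and 10.24 FPKM. Both were highest in the vector culture with Bic/4AP.

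The Id genes encode helix-loop-helix proteins that block basic helix-loop-helix transcription factors and are induced by BMP signalling in many cell types. They were among the most abundant genes of the set, and they did not share a direction. The upstream sequences of Id2, Id3 and Id4 are shown because Id2 was higher with Bic/4AP, Id4 lower and Id3 nearly level (-0.05 and -0.13). That of Smad1 is shown because it encodes a Smad of the branch that acts on them. Each run is the 250 bases before the start site in RefSeq (GRCm38.p6), for Id2 chr12:25096093-25096342 (minus strand), Id3 chr4:136143572-136143821 (plus strand), Id4 chr13:48260866-48261115 (plus strand) and Smad1 chr8:79399429-79399678 (minus strand). Capitals mark matches, on either strand, to the Smad-binding letters CAGAC and GTCTAGAC, the GC-rich BMP-Smad letters GGCGCC, the cyclic AMP response element TGACGTCA or its core TGACG, and the CArG box of serum response factor.
Id2: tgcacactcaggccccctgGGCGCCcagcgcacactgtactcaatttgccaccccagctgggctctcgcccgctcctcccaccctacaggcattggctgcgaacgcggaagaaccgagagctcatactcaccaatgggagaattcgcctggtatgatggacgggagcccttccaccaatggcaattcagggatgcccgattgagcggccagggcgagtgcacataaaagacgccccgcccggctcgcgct
Id3: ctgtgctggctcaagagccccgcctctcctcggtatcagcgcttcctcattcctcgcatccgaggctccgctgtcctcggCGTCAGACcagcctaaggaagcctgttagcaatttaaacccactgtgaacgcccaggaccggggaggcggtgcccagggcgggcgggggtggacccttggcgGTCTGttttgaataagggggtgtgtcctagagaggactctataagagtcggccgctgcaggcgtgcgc
Id4: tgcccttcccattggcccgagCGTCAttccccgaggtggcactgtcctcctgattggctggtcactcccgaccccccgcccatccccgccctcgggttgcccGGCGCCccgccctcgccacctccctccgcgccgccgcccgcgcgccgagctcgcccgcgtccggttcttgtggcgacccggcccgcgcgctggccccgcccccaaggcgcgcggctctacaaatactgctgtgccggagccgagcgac
Smad1: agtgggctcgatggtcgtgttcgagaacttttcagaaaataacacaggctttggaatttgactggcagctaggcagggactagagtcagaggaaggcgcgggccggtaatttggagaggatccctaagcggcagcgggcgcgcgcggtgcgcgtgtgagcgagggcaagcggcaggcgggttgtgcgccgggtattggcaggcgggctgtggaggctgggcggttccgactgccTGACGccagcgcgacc
Id2 held GGCGCC at position -231 from the start site. Id3 held CAGAC at -167 and -68 and TGACG at -170, where both motifs share letters. Id4 held GGCGCC at -148 and TGACG at -229, and Smad1 held TGACG at -16. In all 32851 RefSeq promoters of 300 bases (the 250 above and 50 after the start), CAGAC was present in 49.6%, TGACG in 20.8%, GGCGCC in 11.9%, TGACGTCA in 1.79%, the CArG box in 1.63% and GTCTAGAC in 0.213%. Of the 13 genes searched (those past either rule, and the Id genes), 7 matched the RefSeq table by symbol, with 12 promoters. The full TGACGTCA was found in 1 of the 12, a promoter of Ltbp1, at position -73. These matches describe letters and are not binding sites.

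Id1, on chr2:152562010-152563146 (mm9), stood at 54.95 FPKM (52.4 to 57.5) and 86.7 FPKM (83.4 to 90.0) in vector cultures, untreated and with Bic/4AP, and at 67.7 FPKM (64.9 to 70.5) and 84.75 FPKM (81.6 to 87.9) in hairpin cultures. Both stimulated cultures were above both untreated ones, by 0.65 and 0.32, and the untreated vector culture was the lowest. Id2, on chr12:25778664-25780957 (mm9), stood at 94.6 FPKM (91.9 to 97.4) and 144 FPKM (140 to 147) in vector cultures and at 89.1 FPKM (86.5 to 91.7) and 132 FPKM (128 to 135) in hairpin cultures. It was higher with Bic/4AP by 0.60 and 0.56, the latter just under the 1.5-fold rule. Id4, on chr13:48356796-48359405 (mm9), went the other way with Bic/4AP, at 90.1 FPKM (87.9 to 92.4) and 66.3 FPKM (64.2 to 68.3) in vector cultures and at 112 FPKM (110.0 to 115) and 78.3 FPKM (76.2 to 80.4) in hairpin cultures. Both stimulated cultures were below both untreated ones (-0.44 and -0.52), and in each state the hairpin culture was higher (0.32 and 0.24). Id3, the most abundant gene of the set, on chr4:135699737-135701307 (mm9), held 185, 178, 181 and 166 FPKM, a range of differences from -0.13 to -0.03. The sum of the 4 genes was 425, 475, 450.2 and 460.1 FPKM, with Id2 making up 22.3% and 30.2% of it in vector cultures and 19.8% and 28.6% in hairpin cultures.

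The response to Bic/4AP was also compared between the 2 kinds of culture, as the response with the hairpin minus the response with the vector. For 32 of 37 pathway genes this difference was below 0 and for 5 above, with a median of -0.13. Over all 13458 genes 54.9% lay below 0, with a median of -0.02. No pathway gene reached a difference of 1. For 9 genes the widest range that the authors' bounds allow stayed below 0 (Tgfbr2, Bmp6, Id1, Ltbp3, Ltbp2, Smurf2, Smad5, Ski and Bmpr1a), and for none did it stay above 0. Over all genes that range stayed below 0 for 749 and above 0 for 789. The 86 other pathway genes described below were less one-sided, with 55 differences below 0 and 31 above and a median of -0.07. For 16 of these the range stayed below 0, and for 5 above. The values of the 37 genes ran from -0.38 (Tgfbr2) to 0.34 (Chrd). Their median was below 0 in each of the 5 roles, at -0.15 for ligands, -0.14 for receptors, -0.09 for Smads, -0.13 for inhibitors and binding proteins and -0.08 for the Id genes. This difference draws on all 4 libraries at once, so a shift in any 1 of them enters every gene together. The marker lists went in different directions in this comparison. Those of neurons (median 0.25, 12 of 13 above 0), astrocytes (0.10, 7 of 9), microglia (0.11, 7 of 9) and fibroblasts and meninges (0.05, 5 of 6) lay mostly above 0, opposite to the pathway genes. Those of the oligodendrocyte lineage (-0.06, 4 of 6 below 0), mural cells (-0.24, 3 of 3) and ependyma and choroid plexus (-0.12, 5 of 5) lay mostly below 0. Kdr, the endothelial marker compared, was at -0.20. Their part in the pathway genes' shift was not tested.

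**Figure D5:**
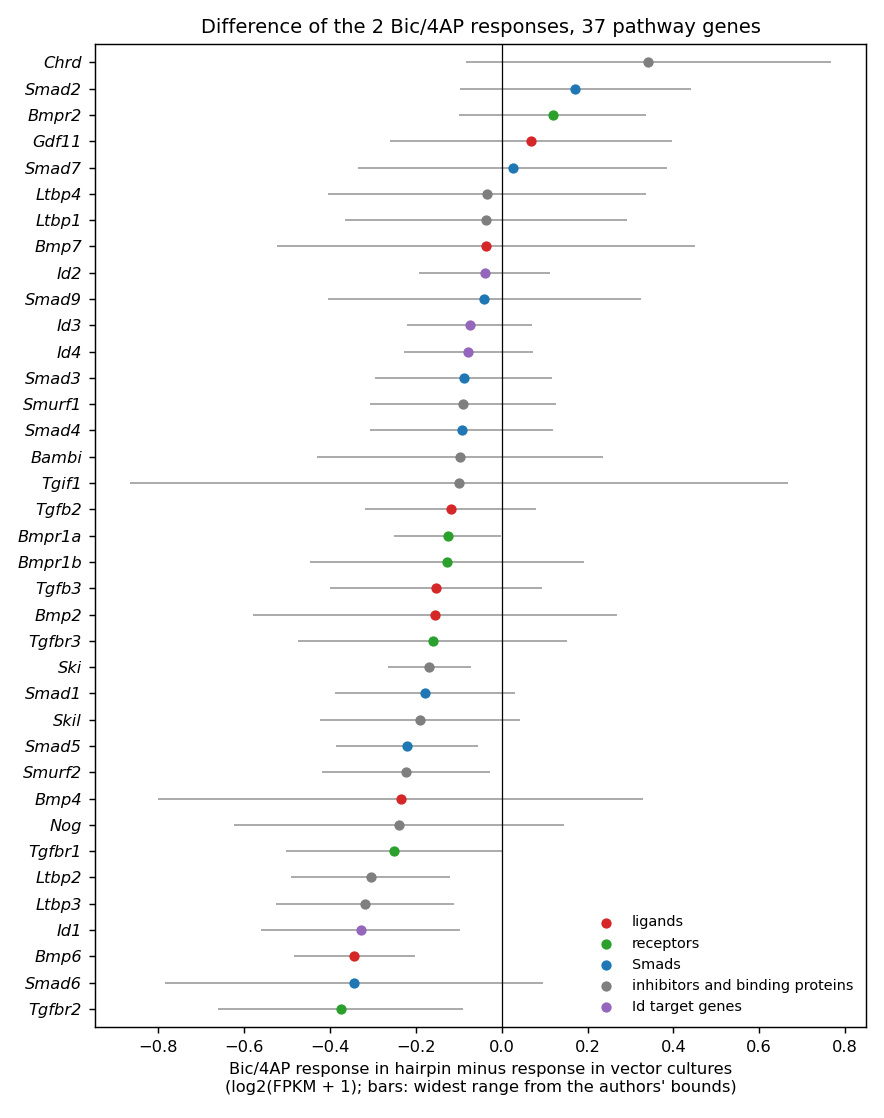
For each of the 37 pathway genes, the Bic/4AP response in hairpin cultures minus that in vector cultures, in log2(FPKM + 1); points are colored by role, bars give the widest range from the authors' bounds, and genes are ordered by value. The points lie left of 0 for 32 genes, and 9 of the bars stay left of it.

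Other genes of the pathway were read from a list of 112, of which 86 reached 1 FPKM. By the 2-fold rule 6 were higher with Bic/4AP in vector cultures and none lower, and in hairpin cultures 6 and none, with medians of 0.04 and 0.05. Of all genes, 2.18% were 2-fold higher and 0.267% lower in vector cultures, and 2.06% and 0.156% in hairpin cultures. By the 1.5-fold rule 13 were higher and 3 lower in vector cultures (4.91% and 3.54% of all genes), and 10 and 4 in hairpin cultures (4.12% and 2.45%). Junb, Klf4, Cyr61, Runx1 and Inhba were among the genes called in both. Junb, a Jun-family transcription factor, stood at 23.0 and 395 FPKM in vector cultures and 27.1 and 388 FPKM in hairpin cultures. Klf4, a Krüppel-like factor, stood at 2.88 and 67.9, and at 4.21 and 71.5 FPKM. Both are also known as activity-induced genes. Cyr61, a matricellular protein gene, stood at 77.9 and 210 FPKM in vector cultures and 88.7 and 199 FPKM in hairpin cultures. Runx1, a Smad partner, stood at 0.694 and 3.09, and at 0.994 and 3.28 FPKM. It was below the filter in both untreated cultures, so it was compared only through the stimulated ones, where it was high. Inhba, the activin beta A subunit gene, stood at 2.87 and 7.54, and at 2.23 and 12.8 FPKM. The 3 lower in vector cultures were the ligand genes Gdf10 (-0.77) and Bmp3 (-0.62) and the antagonist gene Sostdc1 (-0.59). The 4 lower in hairpin cultures were Gdf10 (-0.67), the ligand gene Gdf1 (-0.61), Tab1, an adaptor of the TAK1 kinase (-0.61), and Rgma, a BMP co-receptor (-0.59).

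By list, 13 of 16 TGF-beta target genes were compared, and their median Bic/4AP difference was 0.75 in vector and 0.44 in hairpin cultures, with 7 and 4 past the 1.5-fold rule on the higher side (4.91% and 4.12% of all genes) and none on the lower (3.54% and 2.45%). For 9 of 10 BMP target genes other than the Id genes the medians were 0.44 and 0.40, with 2 and 3 of the 9 below 0. The medians of all genes were -0.07 and -0.08. The hairpin median of the BMP targets was the value of Msx2, between those of Hes1 (0.02) and Dlx2 (0.44). Like Runx1, Msx2 was below the filter in both untreated cultures and was compared only through the stimulated ones. With the hairpin none of the 86 genes was at least 2-fold apart in either state, where 0.409% of all genes were higher and 0.661% lower untreated, and 0.186% and 0.528% with Bic/4AP. By the 1.5-fold rule none was higher (2.63% of all genes) and 2, Htra1 and Fst, were lower (2.87%) untreated. With Bic/4AP 1, Inhba, was higher (1.63%) and 2, Fmod and Ctgf, were lower (2.07%). The smallest untreated hairpin differences were those of Htra1, a protease (-0.67), Fst, the activin antagonist follistatin (-0.65), and Bgn, the proteoglycan biglycan (-0.58). The largest were those of Tab2, another TAK1 adaptor (0.57), Hes1 (0.55) and Twsg1, a modulator of BMP ligands (0.55). With Bic/4AP the smallest were those of Fmod, the proteoglycan fibromodulin (-0.77), Ctgf (-0.60) and Bgn (-0.54), and the largest those of Inhba (0.69), Hey1 (0.45) and Tab2 (0.45). Of the 20 extracellular regulators compared, 12 lay below 0 with the hairpin untreated and 10 with Bic/4AP.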

How the data were processed

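RNA of 4 cultures was enriched for polyA and sequenced as 1 library per condition with the Illumina TruSeq kit, per the labels' protocols. The deposited tables hold FPKM with a lower and an upper bound for each gene, as the authors computed them. Tools named in the submitters' processing notes are Cufflinks 2.0.2, TopHat2 2.0.8b and CASAVA 1.8, with mm9 as the build; the annotation is not given in the sources used here. Rows were matched across libraries by symbol, start-site identifier and locus, and summed per symbol; each pathway gene had 1 row. Symbols with a failed row and small RNA genes were left out, which left 21723 genes. Locus starts count from 0 in the tables (583 of 613 microRNA genes, 95.1%, had a RefSeq length of end minus start), so 1 was added to those printed. No further scaling was applied. Genes at 1 FPKM or above in at least 1 library were compared in log2(FPKM + 1) and called by the 2 rules of size given above. Nothing was tested. Each pathway gene may be named; values in every library were required for those past either rule and the largest and smallest of each role, and of the other pathway genes those past the 2-fold rule and the 3 largest and smallest per comparison, of which 1 gene is not reported here. The members and lists were chosen with earlier results of these data known. Alternatives were a pseudocount of 0.1 or 5, no filter or one at 5 FPKM, and scaling by median ratio, upper quartile or common sum. The hairpin was matched to GENCODE transcripts (release M21), and promoters came from RefSeq. The calculation was tested on simulated data. Python 3.11.15, numpy 2.4.6, pandas 2.3.3 and matplotlib 3.10.9 were used.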

Additional observations from a re-analysis of the deposited data

Results flagged for a closer look

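The hairpin difference had opposite signs in untreated and in stimulated cultures, with the authors' bounds apart both times, for 2 of the 37 pathway genes. The share of all genes with this pattern was not counted. Of the 13458 genes, bounds were apart untreated for 4419 on the higher and 2955 on the lower side. With Bic/4AP they were apart for 3795 and 2806. Smurf2, a ubiquitin ligase gene, was higher with the hairpin untreated (0.13) and lower with Bic/4AP (-0.10), so that the differences were -0.22 apart. Ski, a corepressor gene, was at 0.06 untreated and -0.11 with Bic/4AP, -0.17 apart. The untreated difference of Ski was 0.05 under common-sum and 0.04 under upper-quartile scaling, but 0.0015 under median-ratio scaling, which leaves no sign to set against the other state. That of Smurf2 was 0.12, 0.11 and 0.08 under the same scalings in that order. All 4 differences were under the 1.5-fold rule, each rests on 1 library per group, and the difference between the states was not tested.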

How the results depend on the processing

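No paired analysis was possible because each group has 1 library. For the same reason no replicate could be left out, and the bounds, which set the precision, say nothing of variation between cultures. With a pseudocount of 0.1, 3 genes were at least 2-fold apart in the hairpin Bic/4AP response and 6 by the 1.5-fold rule (1 and 3 as reported), and 1 in the hairpin difference with Bic/4AP (none as reported). With a pseudocount of 5, the 2-fold counts were 0 in the vector response, 0 in the hairpin response and 0 in the untreated hairpin difference (2, 1 and 1 as reported), and the 1.5-fold counts were 3, 1 and 1, and 1 in the hairpin difference with Bic/4AP (8, 3, 3 and 3 as reported). With a filter of 5 FPKM, which leaves 27 of the genes, the vector response had 1 gene by the 2-fold rule and 5 by the 1.5-fold rule, and the hairpin response 1 by the 1.5-fold rule. Median-ratio and upper-quartile scaling each gave 5 genes by the 1.5-fold rule in the hairpin response. The cause of these moves was not tested, beyond what the scale and the filter do by construction. No median of the 37 genes moved by more than 0.12, and no called difference changed sign under any alternative run. The count of 32 genes below 0 in the difference of responses was 32 under both other pseudocounts and the 3 scalings. The hairpin response had 21 genes above 0 as reported, 25 under median-ratio and 18 under common-sum scaling, where its median was -0.01. Small differences changed sign under some scaling, those of Bmp6, Bmp7, Bmpr1a, Smad2, Smad4, Smurf1 and Ltbp3 in the hairpin response and of Bmpr1b, Smad6, Smurf1, Bambi and Id3 in the vector response. In the hairpin differences this held for Smurf1 and Skil untreated and for Smad4 and Smad9 with Bic/4AP.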
